A study of Mus musculus with 6 samples.

Results

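The genes described here encode the proteasome: the subunits of its core and of its regulatory particle, the activators and the inhibitor that cap the core, and the chaperones that assemble it. They were taken by symbol, as every gene named Psma, Psmb, Psmc, Psmd, Psme, Psmf or Psmg followed by a number, with Psmb8 and Psmb9 left out. The rule found 48 of the 19505 genes that a probe set names, each with 1 probe set. The symbols also took in Psmc3ip, which encodes a meiotic recombination protein, and Psme3ip1, which encodes a protein that binds the activator Psme3. These are counted among the 48 and described apart from the subunits. Psmb5, a catalytic subunit, was not analysed here.

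The proteasome is the main protease of the cytosol and nucleus and breaks down proteins that carry ubiquitin chains. Its barrel-shaped core has outer rings of alpha subunits, which gate the entry, and inner rings of beta subunits, some of which cut peptide bonds. A regulatory particle made of a base, with a ring of ATPases that unfold the substrate, and a lid, which takes the ubiquitin off, feeds the core, and other activators can take its place. In cells exposed to interferon the catalytic beta subunits are exchanged for inducible ones, and the activator made of Psme1 and Psme2 is induced with them.

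Transcript levels come from 6 mouse arrays (Affymetrix Clariom S), 2 for each of 3 cell lines. All lines derive from melan-a, an immortalized melanocyte line labelled C57BL/6J, and were grown untreated in RPMI with 10% serum. The mVec line was transduced with a control vector (CD516B2 in the titles). The other two, mKitK641E(T), here T, and mKitK641E(PT), here PT, carry Kit with the activating K641E substitution and are labelled as transformed melanoma. The T titles read C3# and the PT titles hi exp. No source used here explains T, PT or these titles, names the promoter that drives Kit or tells how a line was isolated. Each group is 1 line, and nothing in the labels says that its 2 arrays came from separate cultures, so p-values measure only the spread between arrays of a line, which may be technical.

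Between 29% and 32.6% of the 22206 gene probe sets on an array lay above its background limit, set at the 95th percentile of the negative controls on that array (log2 values of 8.74 to 9.16). Kit itself was under the limit on all 6 arrays and so gave no check of the labels. Of 9 melanocyte markers, 7 were under the limit on every array (Tyr, Tyrp1, Dct, Pmel, Mlana, Slc45a2 and Sox10), and only Gpnmb was above it on all of them. Gpnmb was called lower in T (-1.45 ± 0.20) and in PT (-2.42 ± 0.20). Mitf, above the limit on the T arrays only, was called higher in both. The summed linear level of the 9 was 39343 to 40274 in mVec, 14821 to 15339 in T and 7609 to 8274 in PT. Most of each sum was Gpnmb alone, so the sums do not describe the 9 markers as a set. The 5 leukocyte and 6 keratinocyte markers measured were under the limit on every array. Fibroblast markers also separated mVec from both Kit lines: 5 of 7 were called lower and 1, Col1a2, higher in each line. Over all gene probe sets 15.5% were called lower in T and 18% in PT. Lum, among the 5, was under the limit on every array. The summed linear level of the fibroblast markers was 126292 to 142657 in mVec, 5854 to 6563 in T and 3652 to 4577 in PT. Centring each array on its median would add 0.18 to every T minus mVec difference and 0.19 to every PT minus mVec difference. It would raise the share of higher calls from 52.3% to 62.3% in T and from 49.9% to 60.3% in PT.

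Of the 48 genes, 40 were above the background limit on all 6 arrays. Under it on every array were 5 genes: Psma8, Psmb11, Psmg3, Psmg4 and Psmc3ip. The remaining 3, Psmb10, Psme2b and Psmd9, were above it in some lines only. A gene was called at a Benjamini-Hochberg adjusted p under 0.05 in a limma fit over all gene probe sets, and "rose" and "fell" are used only of called genes. Errors after ± are standard errors of that fit, with n = 2 arrays in each line. Where a group was under the limit on both arrays, a fold is a lower bound against that limit.

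The comparison of each Kit line with mVec asks how the transcripts of the proteasome differ between cells with mutant Kit and cells with the vector. Most subunit genes of the core and of the regulatory particle were higher in both Kit lines, by about 1 log2 unit at the median, while Psmb10, Psme1, Psme2 and Psme2b were lower. In T, 27 of the 48 genes rose and 4 fell, where 16.9% of all gene probe sets rose and 15.5% fell (32.4% in either direction). In PT, 31 rose and 4 fell, where 17.9% and 18% of all gene probe sets did (35.9% in either direction). Brighter probe sets are called more often: among those above background on at least 2 arrays, 36.5% rose and 27% fell in T, and 37.3% rose and 31.7% fell in PT. The rises among the 48 genes were above both backgrounds and the falls below both. The median difference of the 48 genes was 0.86 in T and 0.91 in PT, against 0.01 and 0.08 over all gene probe sets. In 38 of the 48 genes both T arrays lay above both mVec arrays, and in 38 both PT arrays did, against 31.6% and 36.2% of all gene probe sets. The reverse held for 5 genes in each line, against 30% of all gene probe sets in T and 28.7% in PT. The fibroblast markers differ between the same lines, and their part in these differences was not tested. In RNA from whole cultures, fewer cells of a type and less RNA per cell cannot be told apart.

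Between the 2 comparisons, which share the mVec arrays, 24 genes rose in both and 4 fell in both. The 24 include Psmc3ip, which was under the limit on every array. The share of all gene probe sets called in both comparisons was not counted. It cannot exceed the 16.9% of all gene probe sets that rose in T or, for falls, the 15.5% that fell in T. Psmb1, Psmd10 and Psme4 were called higher in T and not in PT, and 7 genes (Psma1, Psma2, Psmb6, Psmd1, Psmd4, Psmd6 and Psmd8) in PT and not in T. No gene was called in opposite directions. The 10 genes called in neither line were Psma4, Psma8, Psmb11, Psmc3, Psmd13, Psmd2, Psme3ip1, Psmf1, Psmg3 and Psmg4.

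**Figure D1:**
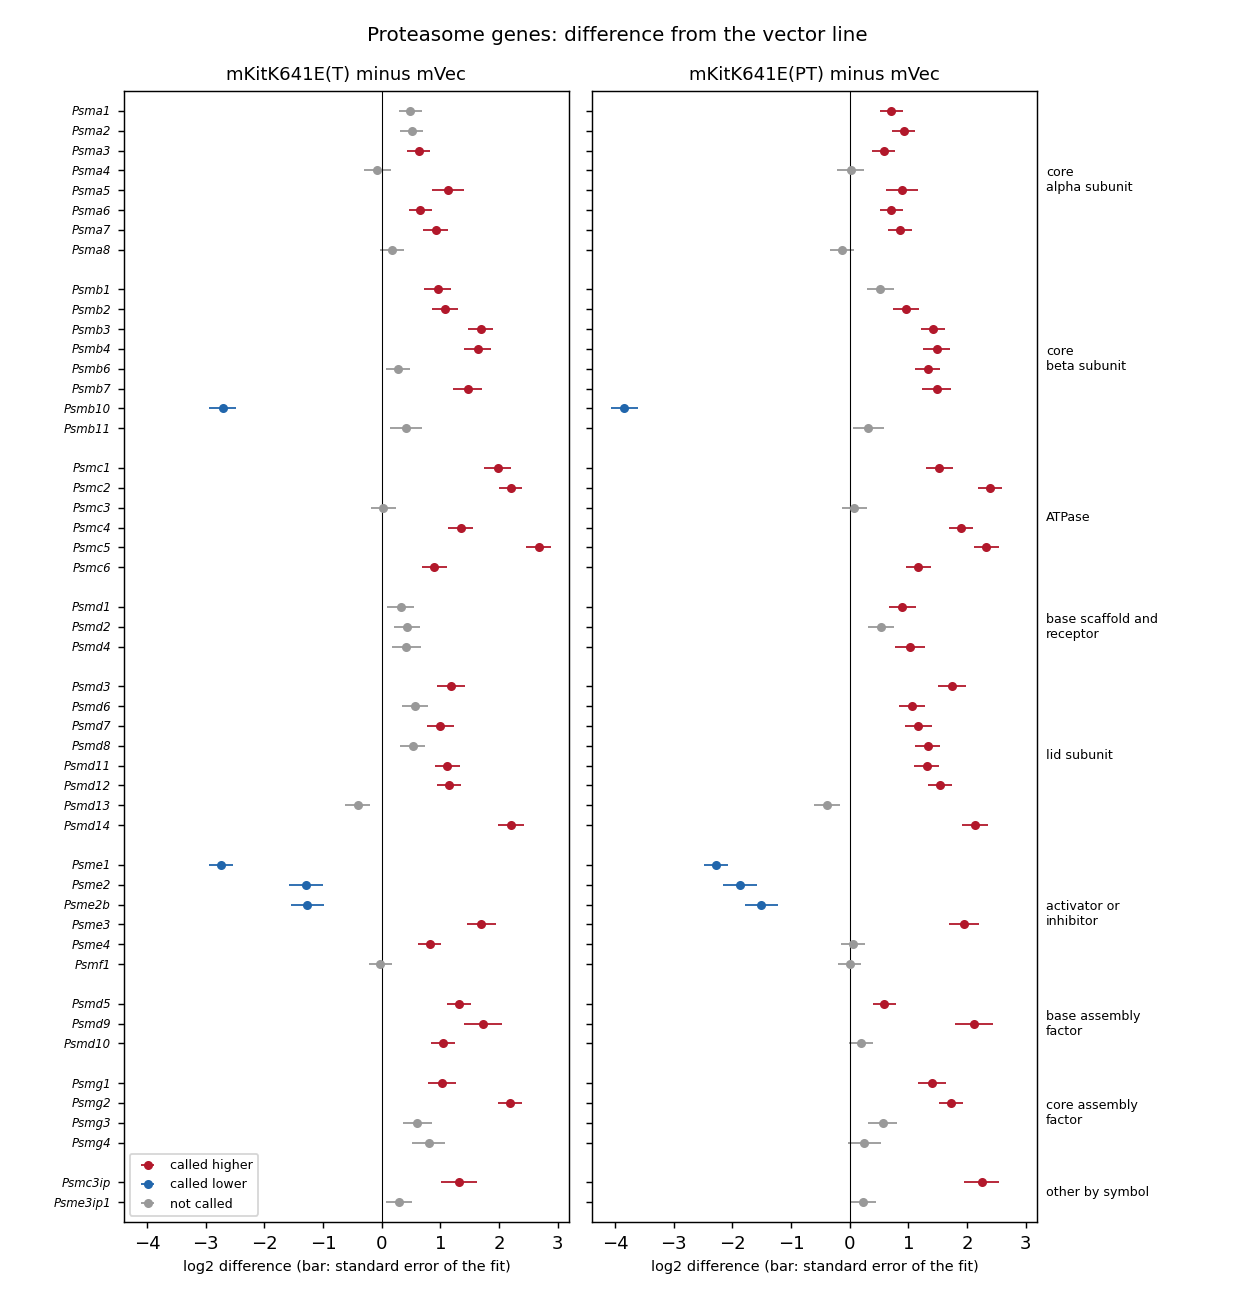
Log2 difference of each of the 48 genes from mVec in T (left) and in PT (right), grouped by role; points are limma differences, bars their standard errors, and colours the call. Most points of the core and regulatory particle lie to the right of 0, while Psmb10, Psme1, Psme2 and Psme2b are the 4 called lower in each panel.

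The alpha subunits form the outer rings of the core. In T, 4 of the 8 alpha genes rose (Psma3, Psma5, Psma6 and Psma7), and in PT 6 did, the same 4 with Psma1 and Psma2. Among all gene probe sets above background on at least 2 arrays, 36.5% rose in T and 37.3% in PT. The rises of the alpha genes were small, from 0.63 ± 0.20 (Psma3) to 1.13 ± 0.27 (Psma5) in T and from 0.58 ± 0.20 (Psma3) to 0.92 ± 0.20 (Psma2) in PT. Psma5 had log2 values of 12.41 and 12.89 in T, 12.14 and 12.68 in PT, against 11.32 and 11.72 in mVec, so that both Kit lines lay above mVec on every array. Psma4 overlapped between all lines, with a difference of -0.07 in T (95% interval -0.59 to 0.45) and 0.02 in PT (-0.50 to 0.54). Psma8, the testis-specific alpha subunit, stayed between 3.47 and 3.97 on the 6 arrays, under the limit on each. Several alpha calls were lost when 1 array was left out. Those of Psma3 were lost without either array of the Kit line or either array of mVec, with adjusted p up to 0.164 in T and 0.188 in PT. The Psma5 calls were lost without mVec replicate 1 or without replicate 2 of the Kit line (up to 0.0836 in T and 0.188 in PT), and the Psma6 calls without either mVec array or replicate 2 of the Kit line, in T also without replicate 1 (up to 0.149 and 0.108). In PT, Psma1 lost its call without PT replicate 2 or either mVec array (up to 0.0988), and Psma7 without PT replicate 2 (0.0571). Quantile normalization between arrays also ended the calls of Psma3 in both lines and of Psma1 and Psma5 in PT.

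Among the beta subunits the constitutive genes and the inducible one moved apart. Psmb2, Psmb3, Psmb4 and Psmb7 rose in both Kit lines, Psmb1 in T and Psmb6 in PT. Psmb7, the catalytic subunit with trypsin-like activity, had log2 values of 14.94 and 15.07 in T, 14.71 and 15.33 in PT, against 13.63 and 13.44 in mVec. The groups did not overlap, and Psmb7 was 2.77-fold higher in T (1.47 ± 0.25, adjusted p = 0.00111) and 2.79-fold higher in PT (1.48 ± 0.25, adjusted p = 0.000875). Psmb10 replaces Psmb7 in the immunoproteasome. It gave 6.58 and 6.18 in T, 5.07 and 5.43 in PT, against 8.99 and 9.18 in mVec. Only 1 mVec array was above its background limit and no Kit array was, so the fold bound is small, at least 1.19-fold for T and at least 1.05-fold for PT. On the deposited scale the T minus mVec difference of Psmb10 was -2.71 ± 0.23 (adjusted p = 1.48e-05). The PT minus mVec difference was -3.84 ± 0.23 (adjusted p = 1.08e-06).

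Psmb3, a structural beta subunit, rose most in T among the constitutive ones. It had log2 values of 12.78 and 12.92 in T, 12.45 and 12.71 in PT, against 11.07 and 11.25 in mVec, and was 3.22-fold higher in T (1.69 ± 0.21, adjusted p = 0.000159) and 2.67-fold higher in PT (1.42 ± 0.21, adjusted p = 0.000401). Psmb4, its neighbour in size of change, rose by 1.64 ± 0.23 and 1.48 ± 0.23. Psmb6, the catalytic subunit with caspase-like activity, gave 13.33 on both T arrays, 14.35 and 14.42 in PT, against 13.22 and 12.89 in mVec. T lay just above mVec without a call (0.28 ± 0.21, adjusted p = 0.384), whereas PT rose by 1.33 ± 0.21 (adjusted p = 0.000598). Psmb11, the subunit of the thymus, was under the limit on every array, between 3.59 and 4.38. The Psmb1 call in T (0.96 ± 0.23) was lost without T replicate 2 and without mVec replicate 1, with adjusted p up to 0.0697, and Psmb1 in PT was 0.52 ± 0.23 (adjusted p = 0.116). Psmb2 rose by 1.08 ± 0.22 in T and by 0.96 ± 0.22 in PT, the latter call lost without PT replicate 2 (adjusted p = 0.0529).

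The remaining catalytic subunits of the immunoproteasome, Psmb8 and Psmb9, were under the background limit on all 6 arrays, mVec included. Psmb8 ran from 4.48 to 5.47 and Psmb9 from 5.05 to 5.89, and neither was called against mVec in T (adjusted p = 0.215 and 0.592) or in PT (0.220 and 0.202).

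The ATPase ring of the base held the largest rises, and 5 of its 6 genes rose in each line. Among all gene probe sets above background on at least 2 arrays, 36.5% rose in T and 37.3% in PT. Psmc5 had log2 values of 13.01 and 13.28 in T, 12.68 and 12.91 in PT, against 10.43 and 10.50 in mVec. It was 6.41-fold higher in T (2.68 ± 0.21, adjusted p = 7.75e-06) and 5.02-fold higher in PT (2.33 ± 0.21, adjusted p = 1.39e-05). Psmc2 gave 16.04 and 16.23 in T, 16.29 and 16.37 in PT, against 13.91 and 13.96 in mVec. Its rise was 4.58-fold in T (2.20 ± 0.20) and 5.26-fold in PT (2.39 ± 0.20, adjusted p = 8.02e-06), the largest of the 48 genes in PT, as that of Psmc5 was in T. Psmc1 gave 14.67 and 14.48 in T, 13.90 and 14.35 in PT, against 12.55 and 12.64 in mVec, rises of 1.98 ± 0.23 and 1.53 ± 0.23. Psmc4 gave 13.64 and 13.81 in T, 14.14 and 14.39 in PT, against 12.37 on both mVec arrays, rises of 1.35 ± 0.21 and 1.90 ± 0.21. Psmc6 completed the 5 ATPases that rose in both lines (0.90 ± 0.21 and 1.17 ± 0.21), and its call in T was lost without mVec replicate 2 (adjusted p = 0.0506).

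Psmc3 was the exception in the ring. It gave 13.26 and 13.54 in T, 13.31 and 13.58 in PT, against 13.37 and 13.36 in mVec, so that all lines overlapped. The difference from mVec was 0.03 in T, with a 95% interval of -0.45 to 0.52, and 0.08 in PT, with an interval of -0.40 to 0.56. These intervals lie below the differences of the other 5 ATPases. That the Psmc3 differences are smaller than those of the other ATPases was not tested.

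**Figure D2:**
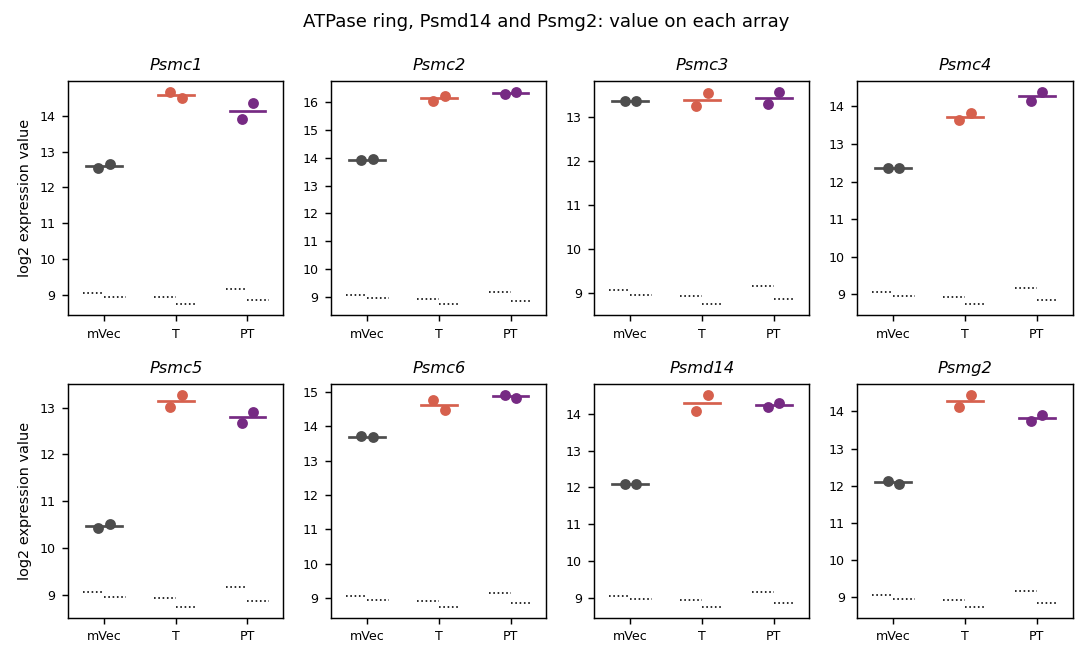
Log2 values of the 6 ATPase genes, the lid deubiquitinase Psmd14 and the assembly chaperone Psmg2 on each array; points are arrays, bars the mean of 2 arrays, and dotted lines the background limit of each array. Psmc3 overlaps between the lines, while in the other 7 genes both Kit lines lie above mVec.

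Of the base scaffold, Psmd1 and Psmd2 hold the ATPase ring to the lid and to shuttle proteins, and Psmd4 is a receptor for ubiquitin. None was called in T, with differences of 0.33 ± 0.23, 0.43 ± 0.22 and 0.42 ± 0.25. Psmd1 (0.90 ± 0.23) and Psmd4 (1.03 ± 0.25) rose in PT, and Psmd2 did not pass (0.54 ± 0.22, adjusted p = 0.0885). Psmd4 had log2 values of 12.97 and 12.92 in T, 13.29 and 13.83 in PT, against 12.34 and 12.72 in mVec, with PT above mVec on every array. Both calls in PT were lost without PT replicate 2 or without mVec replicate 1, with adjusted p up to 0.0810 for Psmd1 and 0.0786 for Psmd4.

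In the lid, 5 of 8 genes rose in T and 7 in PT. Of gene probe sets above background on at least 2 arrays, 36.5% rose in T and 37.3% in PT. Psmd14, the metalloprotease that removes ubiquitin from substrates, changed most: it gave 14.08 and 14.53 in T, 14.19 and 14.29 in PT, against 12.10 and 12.09 in mVec. It was 4.63-fold higher in T (2.21 ± 0.22, adjusted p = 3.81e-05) and 4.42-fold higher in PT (2.14 ± 0.22, adjusted p = 3.43e-05). The structural subunits Psmd3, Psmd7, Psmd11 and Psmd12 rose in both lines, from 1.17 ± 0.23 (Psmd7) to 1.74 ± 0.24 (Psmd3) in PT and by at most 1.18 ± 0.24 (Psmd3) in T. Psmd3 gave 14.22 and 14.20 in T, 14.61 and 14.94 in PT, against 12.77 and 13.30 in mVec. Psmd6 and Psmd8 rose in PT (1.06 ± 0.22 and 1.33 ± 0.21) and did not pass in T (0.57 ± 0.22 and 0.53 ± 0.21, adjusted p = 0.0749 and 0.0871). Psmd13 was the only lid gene below mVec: both arrays of each Kit line lay under both mVec arrays, by 0.41 in T (95% interval -0.92 to 0.09) and by 0.39 in PT (-0.90 to 0.11), with no call.

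The activators split in 3 ways, and the inhibitor was not called. Psme1 and Psme2 are the paired subunits of the ring-shaped activator that interferon induces. Psme1 had log2 values of 12.64 and 12.71 in T, 12.98 and 13.31 in PT, against 15.42 on both mVec arrays. Every Kit array lay more than 2 log2 units under mVec, and Psme1 was 6.70-fold lower in T (-2.74 ± 0.21, adjusted p = 6.15e-06) and 4.86-fold lower in PT (-2.28 ± 0.21, adjusted p = 1.47e-05). Psme2 gave 10.19 and 10.97 in T, 9.76 and 10.23 in PT, against 11.80 and 11.93 in mVec. It fell without overlap, 2.44-fold in T (-1.29 ± 0.29, adjusted p = 0.00628) and 3.65-fold in PT (-1.87 ± 0.29, adjusted p = 0.000523). Psme2b is a close copy of Psme2, so that signal of one may be read by the probes of the other, and its values are uncertain. It was above background on both mVec arrays only and fell at least 1.26-fold for T and at least 1.11-fold for PT.

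Psme3, which forms the nuclear activator of the same family, went the other way. It gave 15.26 and 14.86 in T, 15.20 and 15.43 in PT, against 13.13 and 13.60 in mVec, 3.24-fold higher in T (1.70 ± 0.25, adjusted p = 0.000443) and 3.87-fold higher in PT (1.95 ± 0.25, adjusted p = 0.00014). Psme4, a large single-chain activator found in the nucleus, gave 13.45 and 13.65 in T, 12.80 and 12.79 in PT, against 12.73 on both mVec arrays. It rose in T (0.82 ± 0.20, adjusted p = 0.00987) and not in PT (0.06 ± 0.20, adjusted p = 0.859). The T call was lost without T replicate 2, without mVec replicate 1 and without mVec replicate 2, with adjusted p up to 0.0613. Psmf1, an inhibitor of the core, had 13.49 and 13.76 in T, 13.67 and 13.61 in PT, against 13.61 and 13.68 in mVec. Its differences were -0.02 in T (95% interval -0.48 to 0.44) and 0.00 in PT (-0.46 to 0.46).

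**Figure D3:**
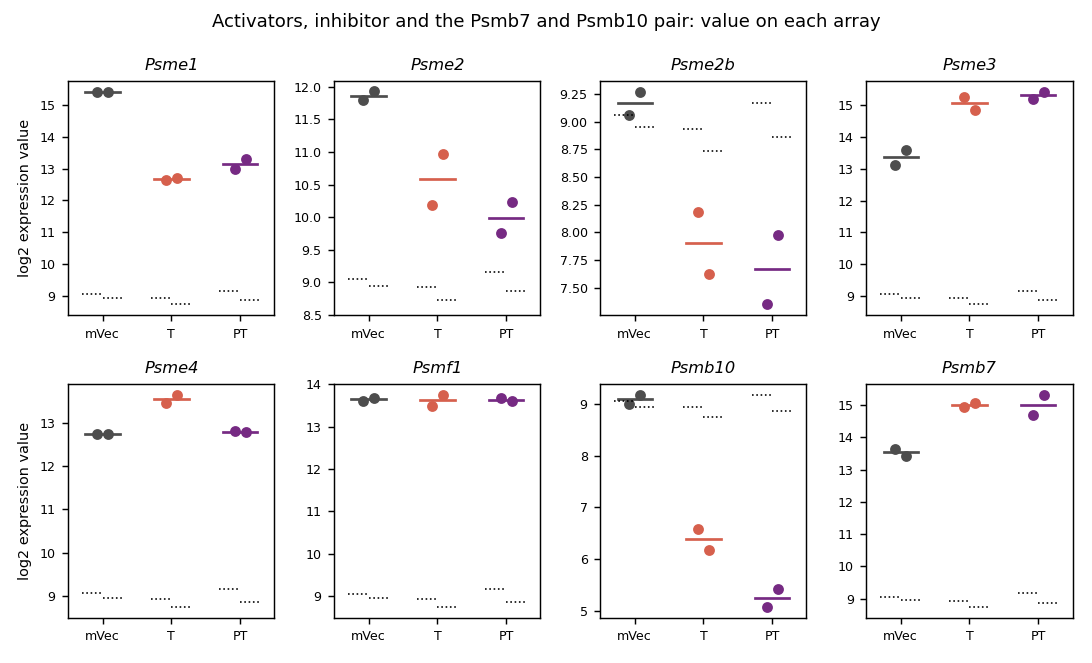
Log2 values of the 5 activator genes, the inhibitor Psmf1, and Psmb10 beside the subunit it replaces, Psmb7; points are arrays, bars the mean of 2 arrays, and dotted lines the background limit of each array. Psme1, Psme2, Psme2b and Psmb10 lie lower in T and PT than in mVec, Psme3 and Psmb7 lie higher, and Psmf1 overlaps between the lines.

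Psme1, Psme2 and Psmb10 have partners in class I antigen presentation that interferon also induces, and most of those measured were called lower in the same lines. Of 7 measured genes in a list of immunoproteasome partners and interferon control, 5 fell in T and 5 in PT, with a median of -0.81 and -0.99. Over all gene probe sets 15.5% fell in T and 18% in PT (27% and 31.7% of those above background on at least 2 arrays). The list includes Psmb8 and Psmb9, which were not called. Irf1, a transcription factor of the interferon response, had 7.93 on both T arrays, 7.55 and 7.30 in PT, against 10.54 and 10.90 in mVec, a fall of at least 3.69-fold for T and at least 3.26-fold for PT. Tapbp, a chaperone that helps load peptide on class I molecules, fell in both (-2.31 ± 0.29 for T and -3.40 ± 0.29 for PT). Tap1, a subunit of the peptide transporter, was above background on 1 mVec array only and fell in both on the deposited scale (-2.92 ± 0.31 and -3.10 ± 0.31). Tap2, its partner, was called lower and was under the limit on every array. B2m, the light chain of class I molecules, fell by 0.61 ± 0.19 in T and by 0.99 ± 0.19 in PT. Its T call was lost with centred arrays, under quantile normalization and without any 1 of the T or mVec arrays (adjusted p up to 0.279), and both Tap2 calls were lost under quantile normalization and without mVec replicate 2, among others (up to 0.190).

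Promoter sequences were read from RefSeq (build GRCm38.p6) for members that moved in different directions, Psme1, Psme3, Psmb3 and Psmb6. They were searched on both strands for the antioxidant response element bound by the NRF factors that control proteasome genes (TGACNNNGC), the core of the interferon response element, the gamma activated site bound by STAT factors (TTCNNNGAA), the CCAAT box and the Myc E-box CACGTG. The search covered 250 bases before and 50 after each start. The 250 bases before the start are printed 5′ to 3′ in the direction of the gene, with matches in capitals, and no capitals overlap. Psme1 is at chr14:55578244-55578493 on the plus strand, Psme3 at chr11:101315963-101316212 on the plus strand, Psmb3 at chr11:97703184-97703433 on the plus strand and Psmb6 at chr11:70525107-70525356 on the plus strand.
Psme1: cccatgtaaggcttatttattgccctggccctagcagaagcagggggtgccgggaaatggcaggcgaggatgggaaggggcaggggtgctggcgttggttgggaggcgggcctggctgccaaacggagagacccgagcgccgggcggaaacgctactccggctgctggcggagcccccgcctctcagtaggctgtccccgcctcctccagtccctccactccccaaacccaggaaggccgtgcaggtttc
Psme3: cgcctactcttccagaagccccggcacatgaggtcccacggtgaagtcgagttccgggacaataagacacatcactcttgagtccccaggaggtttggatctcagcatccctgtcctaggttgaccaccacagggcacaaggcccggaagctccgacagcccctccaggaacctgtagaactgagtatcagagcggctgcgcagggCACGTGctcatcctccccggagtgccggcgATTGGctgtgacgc
Psmb3: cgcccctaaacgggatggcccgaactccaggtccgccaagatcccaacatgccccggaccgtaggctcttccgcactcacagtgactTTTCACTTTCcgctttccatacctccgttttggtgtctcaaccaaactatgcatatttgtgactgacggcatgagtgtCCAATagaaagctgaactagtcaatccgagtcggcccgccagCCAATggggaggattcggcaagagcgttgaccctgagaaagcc
Psmb6: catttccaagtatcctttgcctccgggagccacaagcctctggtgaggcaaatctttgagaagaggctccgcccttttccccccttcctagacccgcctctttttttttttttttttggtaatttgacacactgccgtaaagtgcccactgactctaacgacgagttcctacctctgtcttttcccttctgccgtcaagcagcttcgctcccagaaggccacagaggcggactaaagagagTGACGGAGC

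In Psme1, which fell, the only match was an interferon element core, TTTCGCTTTC, in the transcribed part, from base 10 after the start. Psmb3, which rose, held the same motif as TTTCACTTTC, from base -163, with CCAAT boxes from bases -85 and -43. Psme3 held the E-box from base -44 and a CCAAT box on the other strand from base -14, and Psmb6, which rose in PT, an antioxidant response element from base -9. RefSeq windows matched 40 of the 48 genes. Among these the antioxidant response element was in 5 (12.5%, against 14% of 27025 genes with a window) and the interferon core in 5 (12.5%, against 3.99%): Psme1, Psmb3, Psmd4, Psmd9 and Psmg4. The gamma activated site was in 2 (5% against 9.55%), the E-box in 5 (12.5% against 8.09%) and the CCAAT box in 15 (37.5% against 41.1%). Of the 24 genes that rose in both lines, 19 had a window, and of these 9 held a CCAAT box, 3 an antioxidant response element, 2 the interferon core (Psmb3 and Psmd9), 2 the E-box and 1 the gamma activated site. Of the 4 that fell in both lines, all had a window: Psme1 held the interferon core, Psmb10 the E-box, and none held the other 3 motifs. These matches describe letters in short windows and not bound sites.

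Of 4 chaperones that assemble the core, 2 rose in each line, and of 3 that assemble the base, 3 rose in T and 2 in PT. Among all gene probe sets above background on at least 2 arrays, 36.5% rose in T and 37.3% in PT. Psmg2, which forms with Psmg1 the dimer on which the alpha ring is built, had log2 values of 14.11 and 14.45 in T, 13.74 and 13.89 in PT, against 12.14 and 12.04 in mVec. It was 4.56-fold higher in T (2.19 ± 0.21, adjusted p = 3.21e-05) and 3.31-fold higher in PT (1.73 ± 0.21, adjusted p = 0.000121). Psmg1 rose by 1.03 ± 0.24 and 1.41 ± 0.24, and its T call was lost without mVec replicate 1 (adjusted p = 0.0540). Psmg3 and Psmg4 were under the limit on every array and were not called. Chaperones of the base followed. Psmd9 gave 9.77 and 10.49 in T, 10.29 and 10.73 in PT, against 8.03 and 8.76 in mVec, where it was at background, at least 2.18-fold higher in T and at least 2.85-fold higher in PT. Psmd5 rose by 1.32 ± 0.20 in T and by 0.59 ± 0.20 in PT, a call lost in PT without any 1 of the PT or mVec arrays (adjusted p up to 0.179) and under quantile normalization. Psmd10, also known as gankyrin, gave 11.48 and 11.63 in T, 10.64 and 10.76 in PT, against 10.44 and 10.57 in mVec, a rise of 1.05 ± 0.20 in T (adjusted p = 0.00246) and no call in PT (0.19 ± 0.20, adjusted p = 0.542).

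The 2 genes taken in by symbol alone differed from each other. Psmc3ip, under the limit on every array, was called higher in T (7.52 and 7.03, against 5.67 and 6.23 in mVec) and in PT (7.87 and 8.53), and no fold is given. Its T call was lost without T replicate 1 and without mVec replicate 1 (adjusted p up to 0.0649). Psme3ip1 was above the limit on every array and not called in T (0.30 ± 0.22) or PT (0.22 ± 0.22).

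The direct comparison of T with PT asks where the 2 Kit lines differ from each other. Here 3 of the 48 genes were higher in T (5.67% of all gene probe sets were) and 2 were lower (2.7% of all), so that the share called, 5 of 48, was near the 8.36% of all gene probe sets called in either direction. Among probe sets above background on at least 2 arrays, 12.2% were higher and 5.61% lower in T. Psmb6, described above, was lower in T on every array (-1.05 ± 0.21, adjusted p = 0.016), 2.07-fold. Psmd8, a lid subunit, had 14.20 and 14.17 in T, 14.86 and 15.10 in PT, against 13.54 and 13.77 in mVec, and was lower in T by 0.80 ± 0.21 (adjusted p = 0.0465). Psmd10 was higher in T (0.86 ± 0.20, adjusted p = 0.0307), and so was Psme4 (0.76 ± 0.20, adjusted p = 0.0481). Psmb10, at background in both lines, was called higher in T on the deposited scale (1.13 ± 0.23, adjusted p = 0.019), and no fold is given.

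Each of these 5 calls was lost when 1 array was left out: without PT replicate 1 or PT replicate 2 none passed, and without T replicate 1 Psmb6 was the only one that did. Without T replicate 2 only Psmb10 passed, and without either mVec array Psmb6 and Psmb10 did. The highest adjusted p over these and the other alternatives was 0.0819 for Psmb6, 0.141 for Psmb10, 0.160 for Psmd10, 0.184 for Psmd8 and 0.195 for Psme4. In the regulatory particle 14 of the 17 subunits had a T minus PT difference below 0, with a median of -0.20, and in 10 of them both T arrays lay under both PT arrays, against 26.3% of all gene probe sets; Psmd8 alone was called. Of those 14 differences, 4 changed sign under some alternative (Psmc3, Psmd13, Psmd2 and Psmd7). Over all 48 genes, both T arrays lay under both PT arrays in 15 and above them in 11. Of all gene probe sets, 26.3% and 23.8% did so. Of the 48 differences 26 were below 0 and 22 above. The median T minus PT difference over all gene probe sets was -0.04, and their share below 0 was not counted.

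**Figure D4:**
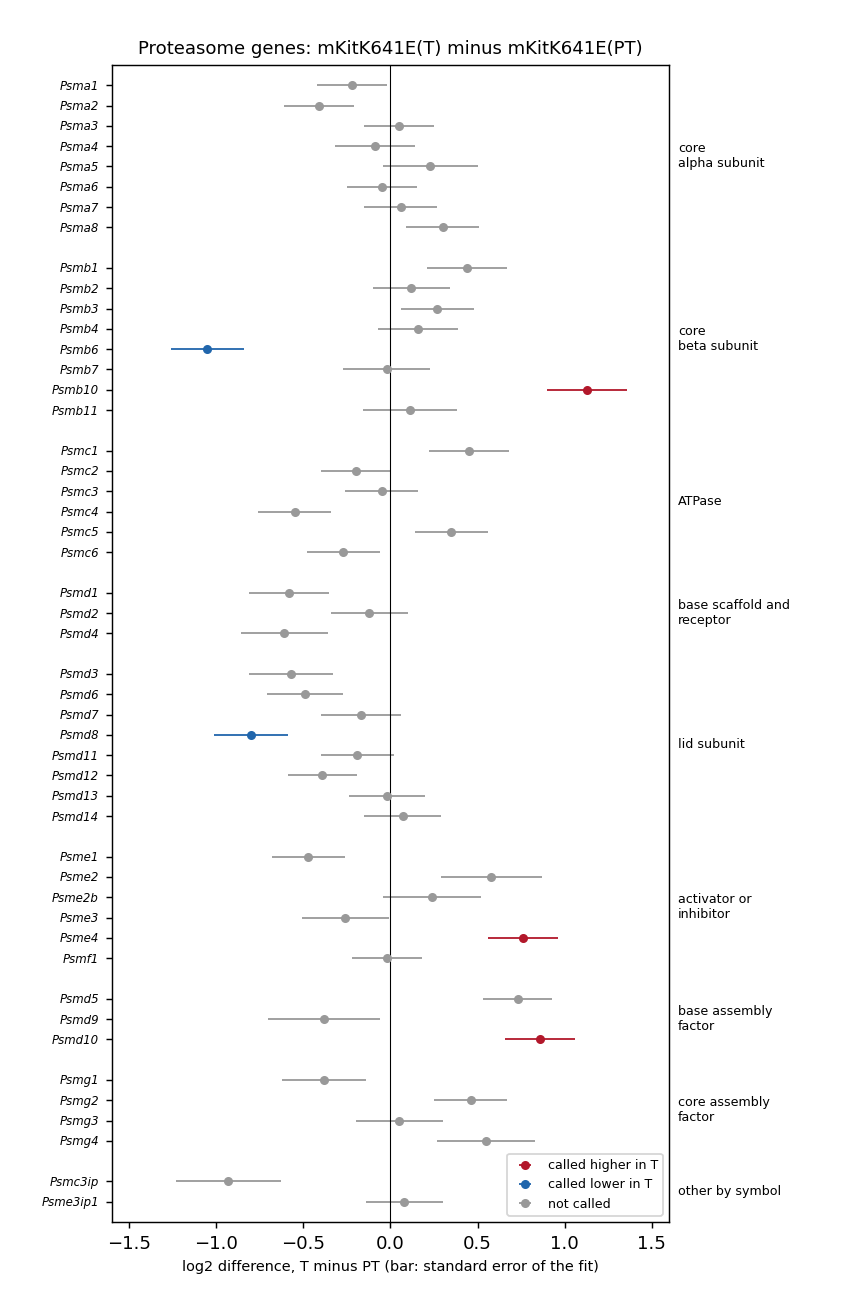
Log2 difference T minus PT of each of the 48 genes, grouped by role; points are limma differences, bars their standard errors, and colours the call. Called are 5 genes, Psmb10, Psmd10 and Psme4 to the right of 0 and Psmb6 and Psmd8 to the left.

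Other genes of the pathway were read from 4 further lists. Among 7 measured genes without a Psm symbol whose proteins bind or assemble the proteasome, 5 rose in T and 4 in PT, and none fell. All 7 were above background on every array, where 36.5% (T) and 37.3% (PT) of gene probe sets above background on at least 2 arrays rose. The PT call of Ecpas, which holds the core and regulatory particle together, was lost under quantile normalization and without any 1 of the PT or mVec arrays (adjusted p up to 0.193). The T call of Ube3c, a ubiquitin ligase, was lost without T replicate 2 or either mVec array (up to 0.104). Uchl5, a deubiquitinase of the regulatory particle, had log2 values of 12.43 and 12.54 in T, 13.86 and 13.81 in PT, against 10.86 and 10.84 in mVec. It was 3.11-fold higher in T (1.64 ± 0.20) and 7.93-fold higher in PT (2.99 ± 0.20), and lower in T than in PT (-1.35 ± 0.20, adjusted p = 0.00439). Usp14, which also trims ubiquitin there, rose by 1.27 ± 0.25 and 1.36 ± 0.25. Pomp, the chaperone that matures the core, rose 1.61-fold in T and 2.82-fold in PT, with the T call lost without any of 5 single arrays (adjusted p up to 0.224). Txnl1, a thioredoxin-like protein bound to the lid, rose in T (0.94 ± 0.20) and was not called in PT (0.04 ± 0.20). The T call was lost without mVec replicate 1 (adjusted p = 0.0540). Txnl1 was higher in T than in PT (0.90 ± 0.20, adjusted p = 0.0274), a call lost without T replicate 2 and without either PT or mVec array (adjusted p up to 0.133). Sem1, a small lid subunit, was not called (0.16 ± 0.20 and 0.28 ± 0.20).

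Of the ubiquitin genes and activating enzymes only Uba6 was analysed here, and it rose by 0.98 ± 0.23 in T and by 1.46 ± 0.23 in PT. Its T call was lost without mVec replicate 2 (adjusted p = 0.0725). Among 10 shuttle and unfoldase genes, 4 rose in T and 5 in PT, and none fell, shares near the 36.5% and 37.3% that rose among all gene probe sets above background on at least 2 arrays. Ubqln4, a ubiquilin that carries ubiquitinated proteins to the proteasome, gave 11.14 and 11.74 in T, 11.81 and 11.86 in PT, against 8.76 and 8.93 in mVec, at least 5.43-fold higher in T and at least 7.12-fold higher in PT. Its relative Ubqln1 rose by 1.56 ± 0.26 and 1.72 ± 0.26. The smaller rises of Nploc4 and Faf1 in both lines and of Rad23b in PT were each lost without single arrays, mVec replicate 2 in every case (adjusted p up to 0.159 for Nploc4, 0.106 for Faf1 and 0.0675 for Rad23b). Vcp, the unfoldase that extracts ubiquitinated proteins, was not called (-0.64 ± 0.28 in T, adjusted p = 0.121; -0.48 ± 0.28 in PT, adjusted p = 0.234).

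Genes that control proteasome transcription were not called higher, apart from Fbxw7. Of 7 measured, 4 fell and 1 rose in each Kit line, with medians of -0.93 in T and -1.25 in PT. The list pools transcription factors with genes that act against them, as Keap1 below, so its counts and medians have no single meaning. Over all gene probe sets 15.5% and 18% fell, and 27% and 31.7% of those above background on at least 2 arrays. Nfe2l1, the transcription factor that raises proteasome genes when the proteasome is inhibited, gave 14.93 and 14.97 in T, 14.65 and 14.62 in PT, against 14.85 and 14.97 in mVec, with no call (0.04 ± 0.20 and -0.28 ± 0.20). Ngly1, which processes it and is counted among the falls, was under the limit on every array. Nfe2l2, its relative in the oxidative stress response, had 10.65 and 11.21 in T, 10.41 and 10.78 in PT, against 11.94 and 12.37 in mVec, lower by 2.34-fold in T and 2.95-fold in PT, and the T call was lost without mVec replicate 2 (adjusted p = 0.0569). Keap1, which targets Nfe2l2 for degradation, was 3.58-fold and 3.65-fold lower (-1.84 ± 0.23 and -1.87 ± 0.23). In each Kit line Keap1 was above the limit on only 1 of 2 arrays, so these folds are uncertain. Btrc, a ubiquitin ligase subunit, fell by 0.93 ± 0.24 in T, a call lost without T replicate 1 or mVec replicate 1 (adjusted p up to 0.129), and by 1.64 ± 0.24 in PT. Fbxw7, another, was called higher and was under the limit on every array, and its T call was lost without mVec replicate 2 (adjusted p = 0.0601).

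**Figure D5:**
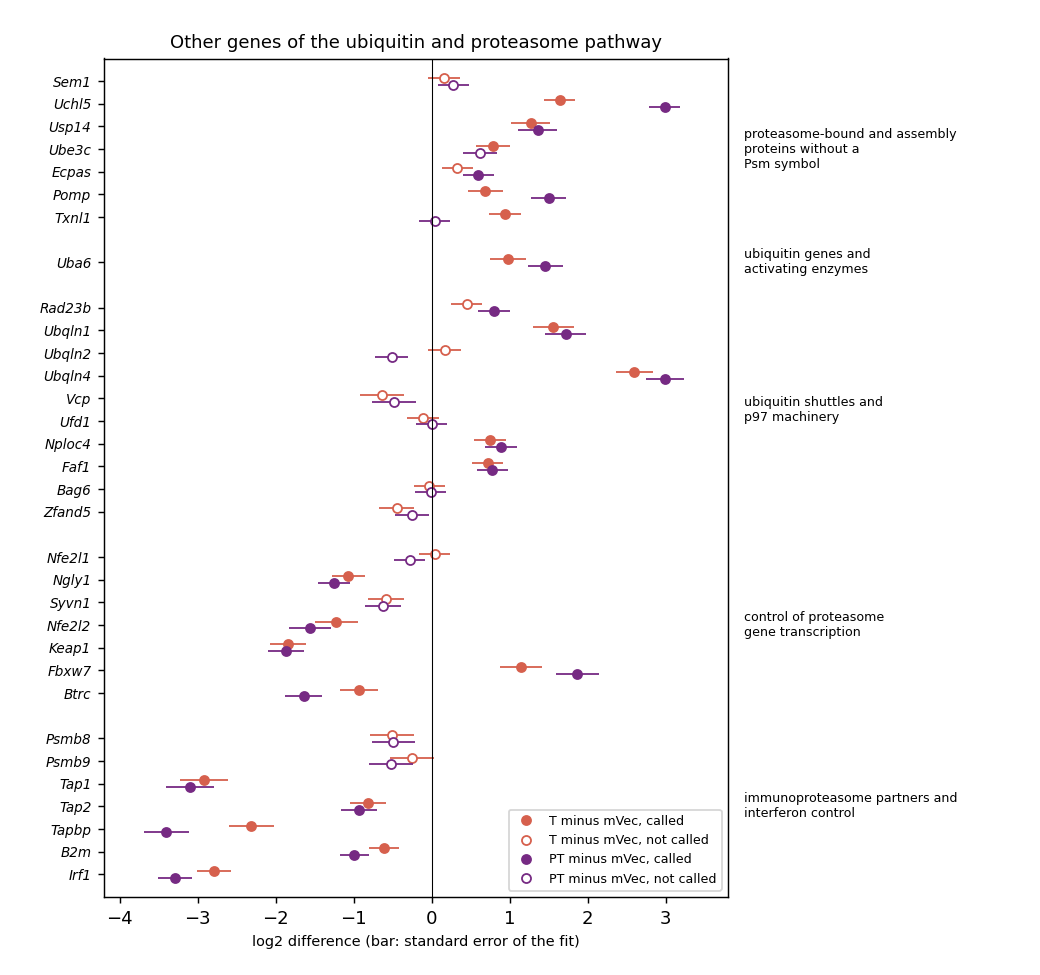
Log2 difference from mVec of genes in 5 lists of the ubiquitin and proteasome pathway, in T and in PT; points are limma differences, filled where called, and bars their standard errors. Uchl5 and Ubqln4 lie furthest to the right and Tapbp and Irf1 furthest to the left in PT.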

How the data were processed

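RNA was measured on 6 arrays in 3 groups of 2, grouped by the source labels. The authors deposited 1 log2 value for each probe set on each array. That they are log2 was judged from their range; no source used here names the software, background correction, normalization or genome build. Of 28846 probe sets, 22206 target genes and were tested; 6640 controls were left out. Symbols came from the platform annotation (19572 probe sets with 1 symbol, 2634 with none). With R 4.3.3 and limma 3.58.1, all arrays entered 1 model with a mean per group (3 residual and 6.36 prior degrees of freedom), with two-sided p-values adjusted over all gene probe sets within each comparison. No low-value filter was used. In simulated data for T minus mVec over 22206 probe sets, 19 of 100 shifts of 1 log2 unit and 93 of 100 of 2 were recovered. The simulation used an assumed spread and shifted no other probe sets, whereas 32.4% were called in the data. Its adjusted cutoff was therefore stricter, and these shares do not give the sensitivity of the real fit. The number of arrays limits the precision. Replicate numbers were not used as pairs (correlations of deviations 0.040 to 0.082). Values on every array are given for up to 8 called rises and 8 called falls in a comparison and for preset catalytic, activator and receptor genes; up to 4 genes are named from each list. Other genes are named to account for counts. The members and lists were chosen with earlier results of these data known, and the motifs and the genes whose promoters are printed after the values were seen. Alternatives covered scaling, filters, moderation, the groups fitted, the replicate block, the member rule and leaving out each array.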

Additional observations from a re-analysis of the deposited data

Results flagged for a closer look

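In 5 of the 48 genes the effect in T differed from the effect in PT by the test of the difference itself. As both effects share mVec, this test is the T minus PT comparison, which called 8.36% of all gene probe sets. None of the 5 calls held under every alternative, and Psmb10 was at background in both lines. The log2 differences were 1.13 for Psmb10, -1.05 for Psmb6, 0.86 for Psmd10, -0.80 for Psmd8 and 0.76 for Psme4. Groups of 2 arrays are too small for a check of single outlying arrays.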

How the results depend on the processing

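Against mVec, the 4 lower calls held in each line under every alternative that could test the gene, 19 of 27 higher calls held in T and 22 of 31 in PT; leaving out 1 array gave 20 to 27 higher calls in T and 22 to 31 in PT. Outside those, calls were lost for Psma3 in T and for Psma1, Psma3, Psma5 and Psmd5 in PT. Alternatives that kept all arrays gave 26 to 33 higher calls in T and 27 to 34 in PT, the most with arrays centred. Psma1, Psma2, Psmd6 and Psmd8, called in PT only, were each called higher in T under 4 alternatives. Psmb1, called in T only, was called higher in PT under 3. T minus PT calls depended most on the setting. The 3 higher calls became 1 when only the 2 groups were fitted and 0 to 1 when an array was left out; the 2 lower calls became 1 with arrays centred, 1 with only the 2 groups, 4 with eBayes trend, 1 with the replicate block and 0 to 1 when an array was left out. The cause was not tested. Signs changed only in differences that were not called, among them 17 of the 43 uncalled T minus PT differences of the 48 genes. Centring gave 0.11 for Psma4 and 0.17 for Psmf1 in T, and 0.06 for Psma8 in PT. Quantile normalization gave -0.05 for Psmc3, -0.08 for Nfe2l1 and -0.04 for Ubqln2 in T, and -0.17 for Psma4, -0.04 for Psmc3, -0.10 for Psme4, -0.11 for Psmf1 and -0.13 for Txnl1 in PT. Leaving out 1 array gave, in T, -0.02 to 0.10 for Nfe2l1, -0.34 to 0.19 for Psma4, -0.65 to 0.15 for Psmb9, -0.11 to 0.18 for Psmc3 and -0.15 to 0.12 for Psmf1. In PT it gave -0.00 to 0.04 for Psma4, -0.03 to 0.66 for Psmb11, -0.06 to 0.21 for Psmc3, -0.03 to 0.04 for Psmf1 and -0.05 to 0.13 for Txnl1. Taking the lowest-mean probe set gave no value, as each of the 48 genes has 1 probe set. Where a line was left with 1 array, it was assumed to vary like the others. Genes under the background limit have only a bound.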
